A study of Mus musculus with 146 samples.

Results

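Newborn mouse germ cells with little or no RNA of the zona pellucida gene Zp3 were compared by their level of Sohlh1, a basic helix-loop-helix factor of the germ line. The cells were chosen by TPM (a transcript abundance per length, scaled to the same total in every cell): a cell entered with Ddx4 of at least 1 and Zp3 below 10, and was called early with Sohlh1 below 20 and induced with Sohlh1 of at least 100. Of 146 libraries, 91 met this rule, and after repeat libraries of a cell were counted once they gave 84 member cells, 13 early and 71 induced. A further 7 cells with Zp3 below 10 lay between the classes, 47 cells had Zp3 of at least 10 (Zp3-high) and 1 cell with Ddx4 at 0 was left out. The members were selected on Sohlh1, Zp3 and Ddx4, so the levels of these 3 genes only describe the classes, and every other difference was found in cells that Sohlh1 had already sorted.

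The study profiled single germ cells of the newborn ovary by Smart-seq2, which makes 1 polyadenylated-RNA library per cell, to follow oocytes from germ cell cysts into follicles. All cells came from C57/BL6J females of 1 litter, labelled day 0.5, with no genetic change or treatment named, whose 5 ovaries were dissociated together, and single cells were picked under the microscope. Early and induced cells share strain, age, tissue and treatment. Because no label ties a cell to a pup or a plate, the cells together are a single sample, and neither a test nor a standard error was computed; levels are given as the lowest, median and highest cell, and a cell is named by its number in the labels. In 7 pairs of induced libraries, expression (log2 of TPM plus 1, over genes with a mean of at least 10 TPM) had a Pearson's r of 0.984 to 0.994, whereas no other 2 libraries of the series exceeded 0.771. Although the labels do not name them as repeats of a cell, each pair was therefore counted as 1 cell under the number of its first library, with TPM averaged and reads summed, so the 78 induced libraries are 71 cells. A log2 ratio is that of the induced over the early mean TPM after adding 1 TPM to both, and a gene is called 2-fold higher or lower where that ratio is at least 1 or at most -1. The difference of mean log2 values, given where it changes a count, averages log2 of TPM plus 1 over the cells of each class instead and so gives single high cells less weight.

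Sohlh1 ranged from 0 to 18.7 TPM in early cells (median 0.14) and from 100.5 to 968 in induced cells (median 353). It was below 1 TPM in 11 of the 13 early cells, and the highest early cells, at 12.4 and 18.7, lay next to the lowest cells between the classes, at 22.5 and 23.5. At the upper limit, the lowest induced cells had 100.5 and 107.6 and the highest between cells 49.8 and 80.1. Zp3 was at 0 in 7 of 13 early and 43 of 71 induced cells and reached 0.381 and 4.14 TPM. The lowest Zp3-high cells had 10.3 and 16.8. Ddx4, the RNA helicase that marks germ cells, had a median of 356 TPM in early and 222 in induced cells.

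Depth was similar in the classes. The reads that fell on genes numbered 7592130 to 13862300 per early cell and from 4837060 to 33117400 per induced cell, with medians of 9615240 and 9269050 (to 6 digits). After 1000000 reads were drawn from each cell, the median number of coding genes with a read was 7366 in early and 7490 in induced cells (8738 and 9111 with all reads). The range was wider in induced cells, 3024 to 9516 against 5041 to 8276 in early cells. Mitochondrial reads made up 0.89 to 8.69% per early cell (median 5.12%) and 0.21 to 21.07% per induced cell (median 6.21%). Of 7 germ cell markers other than Ddx4, Tdrd1 was 2-fold higher (2.09), Rnf17 2-fold lower (-1.11) and 5 were within 2-fold in induced cells. Among the 5, Tex101 had a ratio of -0.84 and Dppa5a of 0.50. Dppa5a was past 2-fold without early cell S036 (1.21) and by the difference of mean log2 values (1.22). Dazl had medians of 483 and 542 TPM, Mael of 714 and 746 and Taf7l of 1478 and 1039.6. Of 13 pregranulosa markers, Kitl (1.29) was 2-fold higher in induced cells and Gata4 (-1.25) lower (7.69% each). By the difference of mean log2 values, 0 and 0 were so. The 3 that averaged 1 TPM or more in a class had a median of -0.50, or 1.10 without early cell S065. The other 10 had a mean below 1 TPM in both classes, and the list summed to 0.0662 to 66.6 TPM per early cell and 0 to 82.5 per induced cell (medians 0.802 and 1.18). Foxl2, which defines pregranulosa cells, was at 0 in all early cells and at 1 TPM or more in 3 induced cells; libraries positive for it by PCR had been removed before sequencing. Of 12 stromal markers found, 4 (33.3%) were 2-fold higher in induced cells and 1 (8.33%) lower, beside 11.5% and 7.84% of all coding genes, and 0 and 0 were so by the difference of mean log2 values. Their median log2 ratio was 0.061, with sums of 0 to 31.04 and 0 to 915 TPM (medians 3.17 and 7.76). Over the 7 that averaged 1 TPM or more in a class, the median of 1.80 was 0.70 without induced cell S076. Of 6 surface epithelium markers found, 1, Lgals7, was 2-fold higher in induced cells and 0 lower, and the list summed to 0 to 235 and 0 to 373 TPM (medians 0.109 and 31.8), nearly all of it Lgals7. That gene was at 1 TPM or more in 1 of 13 early and 42 of 71 induced cells, with a ratio of 1.82, or 6.03 without early cell S020. Krt7 went the other way, with a ratio of -0.82 that was within 2-fold, and Upk3b, Krt8, Krt18 and Msln averaged less than 1 TPM in both classes. Of 14 blood and endothelial markers found, 8 (57.1%) were 2-fold lower and 0 higher in induced cells (0 and 0 by the difference of mean log2 values) and the median was -1.75, with sums of 1.41 to 325017 and 0 to 48602 TPM (medians 33.8 and 71.3). The upper end was early cell S126, with 324537 TPM of globin. Without it the median of the 9 markers that averaged 1 TPM or more went from -2.62 to 3.74, and its weight is given where it changes a value. The part of these other markers in the results below was not tested.

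In the fetal mouse ovary, germ cells enter meiosis as interconnected cysts, pair and recombine their chromosomes, and around birth leave the cysts to be enclosed one by one in primordial follicles. Sohlh1 and its partner Sohlh2, the homeobox factors Lhx8 and Nobox, and Figla, another basic helix-loop-helix factor that drives the zona genes, are required for oocytes to form follicles or to survive there. Meioc, which with Ythdc2 sustains the meiotic programme, Ccnb3, a meiotic B-type cyclin, and Hormad1, a protein of the unsynapsed chromosome axis, belong to the preceding meiotic prophase.

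Several genes of meiotic prophase were lower in induced cells, among them Meioc, Ccnb3 and Hormad1, which were taken as markers with earlier results of these cells known. Of 7999 coding genes that averaged 10 TPM or more in a class, 9.84% were 2-fold lower and 12.9% 2-fold higher in induced cells. By the difference of mean log2 values, 1210 genes were lower and 1111 higher. Meioc ranged from 0.0329 to 1219 TPM in early cells (median 228) and from 0 to 202 in induced cells (median 0.0466). The 8 highest early cells lay above every induced cell, and early cell S036 alone had less than 1 TPM. The means were 333 TPM in early and 19.7 in induced cells, a log2 ratio of -4.01. Ccnb3 ranged from 33.6 to 1833 TPM in early cells (median 308) and from 0 to 349 in induced cells (median 30.5), with a ratio of -3.28. Here 6 early cells exceeded all induced cells and 13 of 13 exceeded the induced median. Hormad1 ran from 696 to 3255 TPM (median 1158) in early and from 19.7 to 3503 (median 461) in induced cells, with a ratio of -1.49. Hormad1 was read in every cell of both classes, and 59 of 71 induced cells were below the lowest early cell while 1 was above the highest.

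Meioc was also read in some induced cells and Ccnb3 in most. At 1 TPM or more, Meioc was found in 27 of 71 induced cells and Ccnb3 in 54 of 71. Meioc was at 0 in 35 induced cells and Ccnb3 in 8. Higher limits, which differ between the genes, gave fewer induced cells. Meioc of at least 10 TPM was found in 12 of 13 early cells (92.3%, exact 95% interval 63.97 to 99.8%) and 25 of 71 induced cells (35.2%, 24.2 to 47.5%). Among Zp3-high cells it was found in 4 of 47. Ccnb3 of at least 100 TPM was found in 12 of 13 early cells (92.3%) and 15 of 71 induced cells (21.1%, 12.3 to 32.4%), and in 0 of 47 Zp3-high cells (at most 7.55%). Meioc of at least 10 TPM and Ccnb3 of at least 100 TPM were found together in 11 early and 11 induced cells. In 25 of 71 induced cells, Meioc of at least 10 TPM stood beside Nobox of at least 10 TPM, so a meiotic and a follicle gene were read in the same library. Whether any library held a pair of cells was not tested. These intervals cover the counting of cells only and not any difference between animals.

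**Figure D1:**
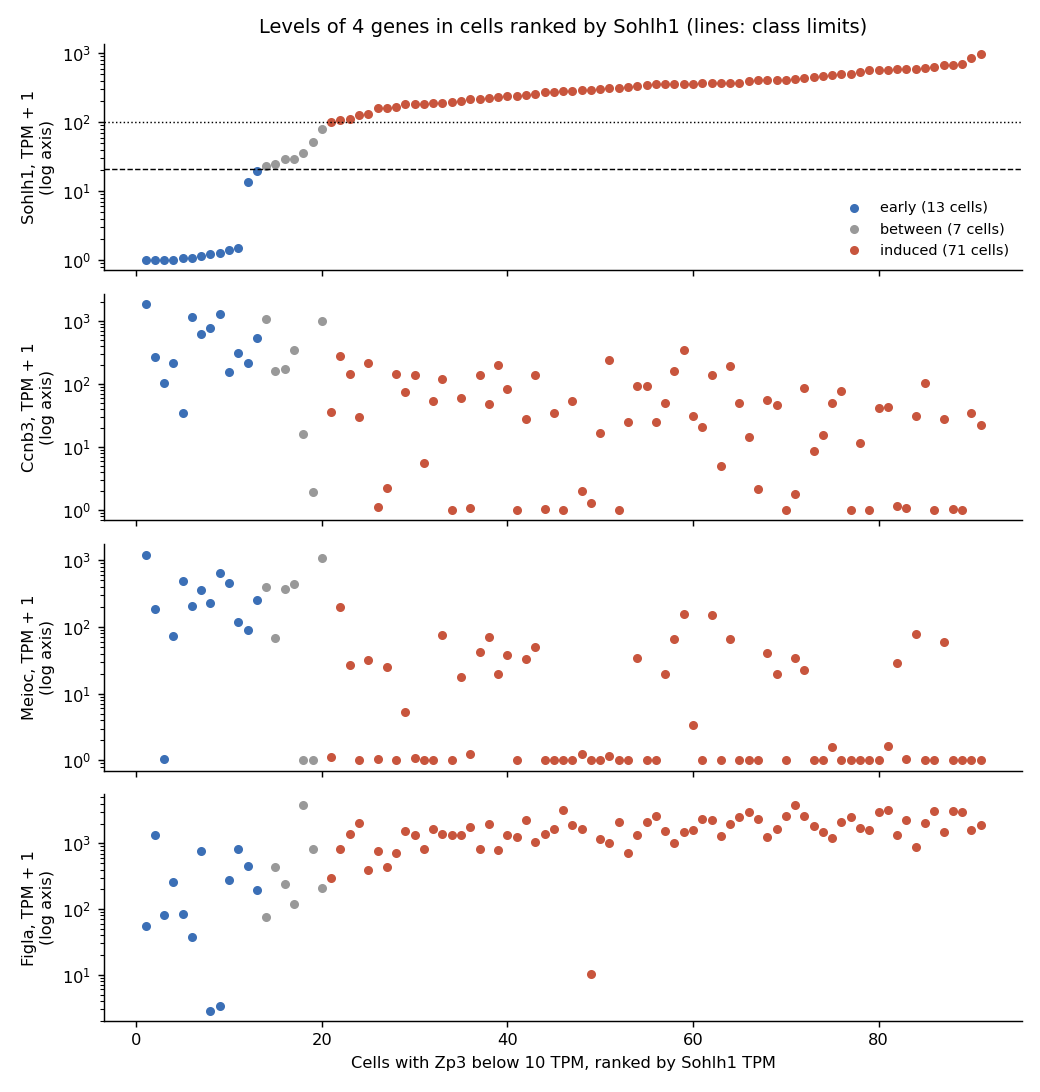
TPM plus 1 (log axes) of Sohlh1, Ccnb3, Meioc and Figla in the 91 cells with Zp3 below 10 TPM, each point a cell, ranked by Sohlh1 from left to right and coloured by class; lines in the upper panel mark the Sohlh1 limits of 20 and 100 TPM. Meioc and Ccnb3 stand high in nearly all early cells and scatter down to 0 in induced cells, whereas Figla spans 2 to 3 powers of 10 in early cells.

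The promoters of the markers are shown because these genes had lower means in induced cells, with the letters CANNTG (the E-box that basic helix-loop-helix factors can bind) in capitals. Each run is the 250 bases before the first start site that RefSeq lists for the gene (build GRCm38.p6, 5′ to 3′ on the gene's strand). They lie at chr11:102665335-102665584 on the plus strand for Meioc, chrX:7041620-7041869 on the minus strand for Ccnb3 and chr3:95559427-95559676 on the plus strand for Hormad1.
Meioc: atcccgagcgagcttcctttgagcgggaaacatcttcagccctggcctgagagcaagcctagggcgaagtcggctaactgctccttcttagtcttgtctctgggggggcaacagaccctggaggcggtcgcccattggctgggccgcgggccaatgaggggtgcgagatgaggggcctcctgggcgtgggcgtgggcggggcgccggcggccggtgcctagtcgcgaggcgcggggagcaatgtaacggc
Ccnb3: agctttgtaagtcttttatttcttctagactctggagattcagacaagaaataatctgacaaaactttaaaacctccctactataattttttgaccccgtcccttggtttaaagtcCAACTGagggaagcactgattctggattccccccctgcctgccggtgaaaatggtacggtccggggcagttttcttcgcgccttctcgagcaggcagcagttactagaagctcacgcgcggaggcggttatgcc
Hormad1: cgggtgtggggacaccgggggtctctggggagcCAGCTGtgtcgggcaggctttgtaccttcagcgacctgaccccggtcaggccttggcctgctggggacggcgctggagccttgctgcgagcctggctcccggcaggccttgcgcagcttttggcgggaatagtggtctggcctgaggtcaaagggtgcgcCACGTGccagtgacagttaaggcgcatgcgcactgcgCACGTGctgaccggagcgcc
The Meioc run holds 0 matches to CANNTG, that of Ccnb3 holds 1 and that of Hormad1 holds 3, of which 2 are CACGTG, a form contained in CANNTG.

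For gene lists, counts and medians are over every member found in the tables, since a gene with a mean below 1 TPM in both classes cannot reach 2-fold with 1 TPM added. Over all 19777 coding genes, 11.5% were 2-fold higher in induced cells, 7.84% were 2-fold lower and the median log2 ratio was 0.0015. Over the 12277 that averaged 1 TPM or more in a class, the shares were 18.6% and 12.6%. These shares are for the ratio of means. By the difference of mean log2 values, 1111 of the 7999 genes that averaged 10 TPM or more were higher and 1210 lower. Of 12 listed follicle transcription factors, all with a mean of at least 1 TPM, 8 were 2-fold higher in induced cells and 0 were 2-fold lower, with a median of 2.47. The list includes Bhlhe41, Id1, Id2 and Id3. The study reported these from the same cells, as regulators or as genes that differed between its cell states. The count and median are therefore not independent of that choice. Lhx8 ranged from 0 to 395 TPM in early cells (median 83.2) and from 109.5 to 1592 in induced cells (median 701). No induced cell was below 100 TPM of Lhx8, 10 of 13 early cells lay below the lowest induced cell, and the ratio was 3.03. Figla ranged from 1.87 to 1348 TPM (median 193) in early and from 9.31 to 3849 (median 1606) in induced cells, a ratio of 2.34. The classes overlapped, since 48 of 71 induced cells exceeded all early cells. Nobox had a median of 0.526 TPM in early cells, with 1 cell at 443, and of 263 in induced cells, which reached 771. Its ratio of 2.61 became 4.19 without early cell S020, which carried that highest Nobox level.

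Other regulators of the same list varied. Foxo3, which restrains follicle activation, had medians of 0.54 and 77.3 TPM and a ratio of 2.77. That ratio was 3.91 without early cell S002 and 2.00 when TPM were scaled to the spike-in RNA. Id2, an inhibitor of basic helix-loop-helix factors, had medians of 61.5 and 601 TPM (ratio 3.24), and 53 of 71 induced cells exceeded every early cell. Bhlhe41, a transcriptional repressor, had medians of 10.3 and 44.3 TPM, with a ratio of 2.60. Tbpl2, an oocyte relative of the TATA-binding protein, was at 1 TPM or more in 0 early and 8 induced cells (ratio 2.68, but 0.53 as a difference of mean log2 values). Id1, already at a median of 1668 TPM in early cells, had a ratio of 0.87, below 2-fold, but 1.15 without early cell S065 and 2.79 as a difference of mean log2 values, so its side of 2-fold depends on the measure. Id3 was near the limit at 1.06 and was 0.95 without early cell S036. Sohlh2, the partner of Sohlh1, went the other way: its median was 132.6 TPM in early and 78.5 in induced cells, with a ratio of -0.69 that was within 2-fold. Taf4b (-0.78) and Taf7l (-0.42), gonadal subunits of the general transcription machinery, were also within 2-fold.

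Follicle factors were read in cells with almost no Sohlh1. Among the 11 early cells with Sohlh1 below 1 TPM, 5 had Figla of at least 100 TPM, 7 had Lhx8 of at least 10 and 3 had Nobox of at least 10. Early cell S016 had no Sohlh1 read and held 1348 TPM of Figla, 108.4 of Lhx8 and 55.1 of Nobox. It also had the fewest coding genes of the early cells after 1000000 reads were drawn, 5041 against a median of 7366. Of the 5 cells with Figla of at least 100, cells S136 and S103 had 6099 and 6700. Cells S020 and S065 lay above that median, at 7584 and 8060. Whether Sohlh1 RNA was missed in such cells was not tested. Early cell S020 had 0.498 TPM of Sohlh1 beside 807 of Figla, 395 of Lhx8 and 443 of Nobox. At the other end, early cells S107 and S106 had Figla of 1.87 and 2.35 TPM and Lhx8 of 0.484 and 0.427. All 3 limits at once were met by 4 of 13 early cells (30.8%, exact 95% interval 9.09 to 61.4%), 3 of 7 between cells and 67 of 71 induced cells (94.4%, 86.2 to 98.4%). Across the 13 early cells Spearman's rho was 0.85 between Figla and Lhx8, 0.73 between Nobox and Lhx8 and 0.47 between Nobox and Figla. These values describe cells whose TPM share 1 total per cell.

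Within the 71 induced cells, Figla was the gene whose level ranked most like that of Sohlh1 among 7363 coding genes with a mean of at least 10 TPM, with a Spearman's rho of 0.53. After it came Vkorc1 (0.49), an enzyme of the vitamin K cycle, Sycp3 (0.42), a core protein of the chromosome axis, Dctpp1 (0.40), a nucleotide pyrophosphatase, and Ppp4c (0.40), a phosphatase subunit. Ift27, Ninj1, Mdh2, Lsm4 and Qdpr followed with 0.39 each. The rho of Sohlh1 was 0.24 with Lhx8, 0.18 with Nobox and -0.30 with Ccnb3, while that of Nobox with Lhx8 was 0.39. All points come from 1 pool of cells, the cells were cut at 100 TPM of Sohlh1 itself and the rhos are weak, so the order is a description of these cells only.

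**Figure D2:**
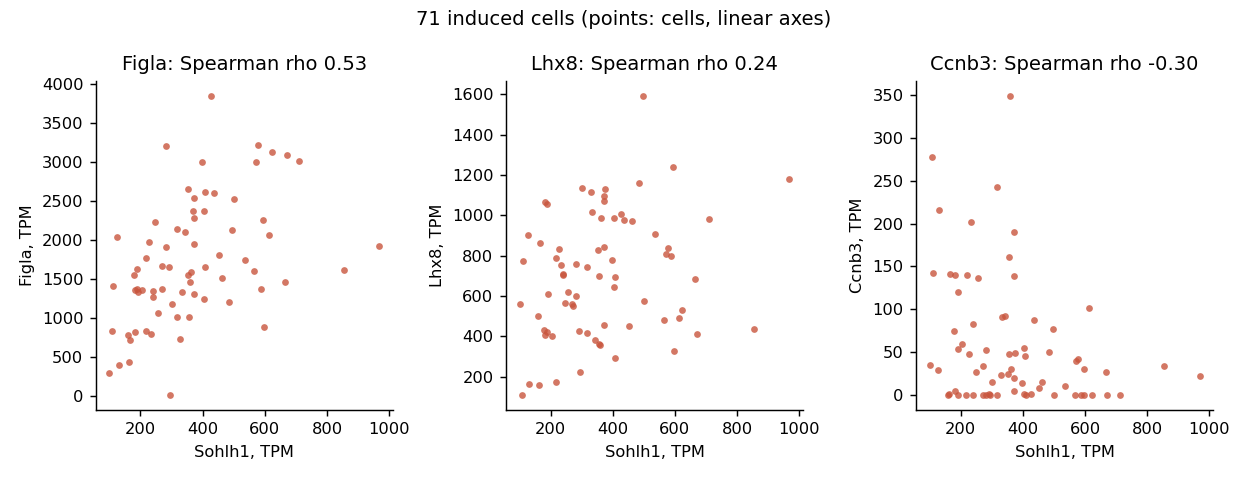
TPM of Figla, Lhx8 and Ccnb3 (linear axes) against TPM of Sohlh1 in the 71 induced cells, each point a cell. The rho with Sohlh1 is 0.53 for Figla, 0.24 for Lhx8 and -0.30 for Ccnb3.

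The promoters of 3 follicle factors with higher means in induced cells follow in the same format, at chr6:86016941-86017190 on the plus strand for Figla, chr3:154330561-154330810 on the minus strand for Lhx8 and chr6:43309555-43309804 on the minus strand for Nobox.
Figla: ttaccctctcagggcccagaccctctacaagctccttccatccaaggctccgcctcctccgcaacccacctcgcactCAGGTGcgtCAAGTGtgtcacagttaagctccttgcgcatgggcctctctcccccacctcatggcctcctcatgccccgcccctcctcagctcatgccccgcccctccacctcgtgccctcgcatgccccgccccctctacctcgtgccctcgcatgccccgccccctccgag
Lhx8: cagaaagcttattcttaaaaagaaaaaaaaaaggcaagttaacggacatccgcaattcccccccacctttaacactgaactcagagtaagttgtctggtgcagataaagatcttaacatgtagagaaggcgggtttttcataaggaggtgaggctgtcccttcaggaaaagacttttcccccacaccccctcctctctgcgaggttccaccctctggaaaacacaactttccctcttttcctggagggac
Nobox: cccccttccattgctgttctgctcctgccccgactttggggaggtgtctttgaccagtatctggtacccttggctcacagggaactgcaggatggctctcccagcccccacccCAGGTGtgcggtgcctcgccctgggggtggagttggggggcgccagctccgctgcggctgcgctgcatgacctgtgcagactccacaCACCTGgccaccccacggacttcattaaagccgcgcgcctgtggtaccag
The runs of Figla and Nobox each hold 2 matches to CANNTG and that of Lhx8 holds 0. The letters were then searched on both strands of the whole window of RefSeq's table, 250 bases before to 50 after the start. CANNTG was present in 67.96% of the 15127 coding genes with a window, in 61.2% of those tested here, in 67.7% of the 812 genes that were 2-fold higher in induced cells and in 60.2% of the 620 that were 2-fold lower. TAATTG, the core letters of Nobox elements, was present in 6.94%, 4.76%, 4.93% and 6.29%. CACGTG gave 8.30%, 11.3%, 10.8% and 9.03%, and TCCCGC, the core of E2F sites, gave 27.4%, 38.1%, 38.4% and 34.8%. A match is a run of letters, not a bound site.

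**Figure D3:**
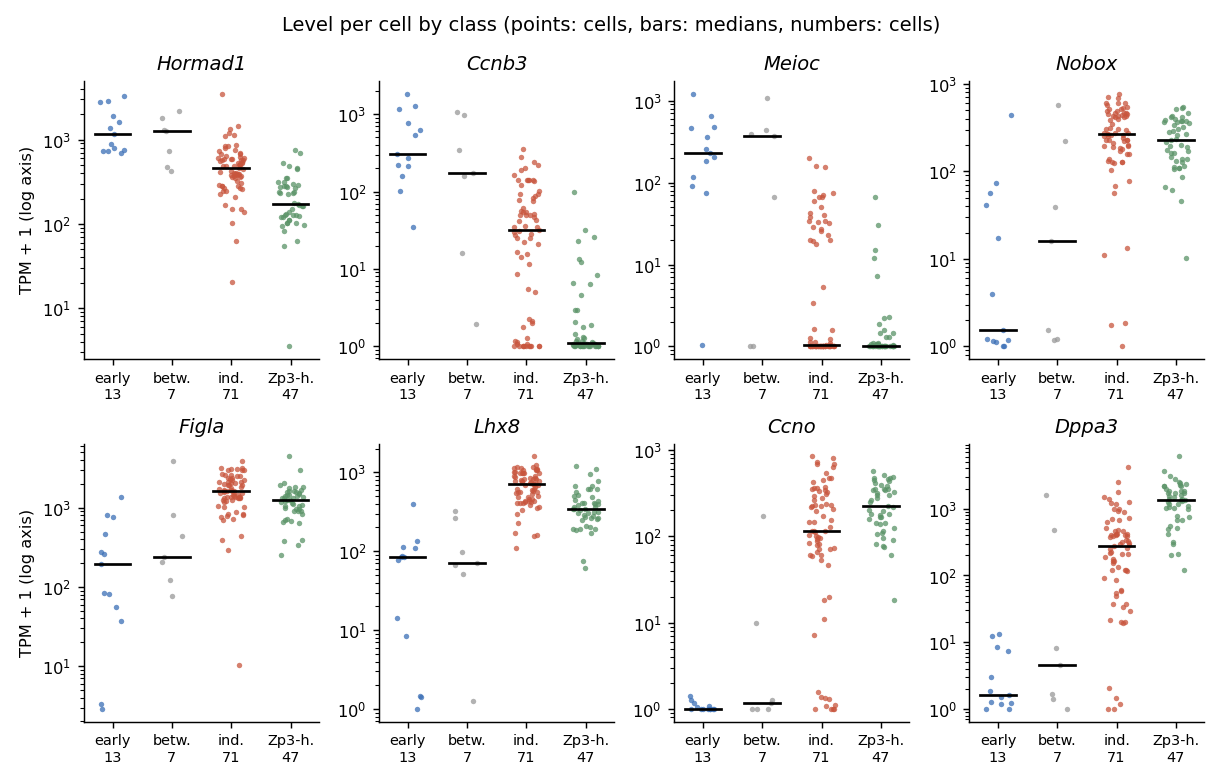
TPM plus 1 (log axes) per cell of 3 meiotic markers, 3 follicle factors, Ccno and Dppa3 in the early (13), between (7), induced (71) and Zp3-high (47) cells, with a bar at each median. The meiotic medians are lower in induced than in early cells and lowest in Zp3-high cells, and Lhx8 peaks in induced cells (median 701 TPM against 345 in Zp3-high cells).

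Across the transcriptome, 7999 coding genes averaged 10 TPM or more in at least 1 of both classes. Of these, 1029 (12.9%) were 2-fold higher in induced cells and 787 (9.84%) were 2-fold lower, with a median log2 ratio of -0.01. By the difference of mean log2 values the balance was reversed, with 1111 genes higher and 1210 lower. Early cells resembled one another about as much as induced cells did: the median Spearman's rho across these genes was 0.53 over 78 pairs of early cells, 0.52 over 2485 pairs of induced cells and 0.49 over 923 pairs of an early with an induced cell. Pairs of cells share genes and cells, so these rhos have no test.

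The largest ratios are given for genes with at least 1 TPM in 50% or more of the cells of the higher class. The first 4 are those highest in induced over early cells. Cnpy1, a relative of fibroblast growth factor signalling regulators, reached 1.05 TPM in early cells (median 0.0968) and had a median of 277 in induced cells, with a ratio of 8.53. Of 71 induced cells, 67 exceeded the highest early cell. Ccno, the atypical cyclin O, had at most 0.408 TPM in early cells and a median of 114.8 and a highest level of 841 in induced cells (ratio 7.59). It was at 1 TPM or more in 0 of 13 early cells (at most 24.7%) and 61 of 71 induced cells (85.9%). Dppa3, the maternal protein Stella that protects the methylation of the early embryo, was at 1 TPM or more in 5 of 13 early cells, up to 12.2 TPM, and had medians of 0.635 and 271 TPM and a ratio of 6.76, and 66 induced cells exceeded all early cells. Nlrp4f, of an oocyte family of NLR genes, had medians of 0 and 51.6 TPM with 1 induced cell at 1097 (ratio 6.76). Nlrp4f belongs to a family of similar copies between which reads may be divided wrongly, so its level is uncertain.

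The next 11 genes had ratios of 4.79 to 5.94. Ckb, a creatine kinase, was at 1 TPM or more in 2 early and 66 induced cells, with medians of 0.153 and 219.7 TPM, and its ratio of 5.90 was 7.51 without early cell S059. Pdzk1, a scaffold of membrane transporters, Marveld2, a tight junction protein, and Gja4, the connexin of oocyte gap junctions, never reached 0.1 TPM in an early cell and had medians of 11.9, 18.8 and 3.56 in induced cells. Gm26620 (5.27) and Lrrc31 (5.21) stayed below 0.5 TPM in all early cells. Nos1 (4.79), the neuronal nitric oxide synthase, reached 0.107 TPM in early cells and was at 1 TPM or more in 37 of 71 induced cells. Single early cells weighed on 4 further genes: without cell S020 the ratio of the phosphatase gene Dusp12 went from 5.80 to 6.47 and that of the peroxiredoxin Prdx6 from 4.87 to 5.92. Without cell S107 the ratio of the alpha-tubulin Tuba1c went from 5.59 to 6.67, and without cell S059 that of the actin-binding Nexn from 5.02 to 6.06.

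Among the genes lower in induced cells, the histone gene H2bfm on the X chromosome had the lowest ratio by the same rule. It reached 396 TPM in early cells (median 40.9) and was at 1 TPM or more in 7 of 13 early but 2 of 71 induced cells, with a ratio of -5.58, or -6.73 without induced cell S102. Mtl5, which encodes the CXC-domain protein tesmin of meiotic germ cells, had medians of 86.2 and 0 TPM and a ratio of -4.38, and 8 early cells exceeded every induced cell. Meioc and Ccnb3 also belong to this ranking. Strip2 (-2.80), of a kinase and phosphatase complex, was above every induced cell in 7 of 13 early cells. Also lower were Ranbp6 (-3.30), an importin-like gene, Gm8334 (-2.82), Ctps2 (-2.74), a CTP synthase, and H2-Ab1 (-2.84), a class II histocompatibility chain that 8 early and 5 induced cells held at 1 TPM or more.

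Single cells also moved 4 other genes of that ranking. Hba-a2, Hba-a1 and Hbb-bs, the globin genes, had ratios of -3.64, -3.36 and -3.32 and became 5.49, 5.25 and 5.14 without early cell S126, while their medians were 12.5, 8.80 and 8.80 TPM in early and 22.0, 17.9 and 10.8 in induced cells. Svs5, a secretory protein gene, had a ratio of -3.69 that became -2.24 without early cell S059. Without cell S126, globin was thus higher in induced than in early cells, and 11 induced cells held at least 1000 TPM of it. Reads of Hba-a1 and Hba-a2, near-identical copies, cannot be divided with certainty.

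**Figure D4:**
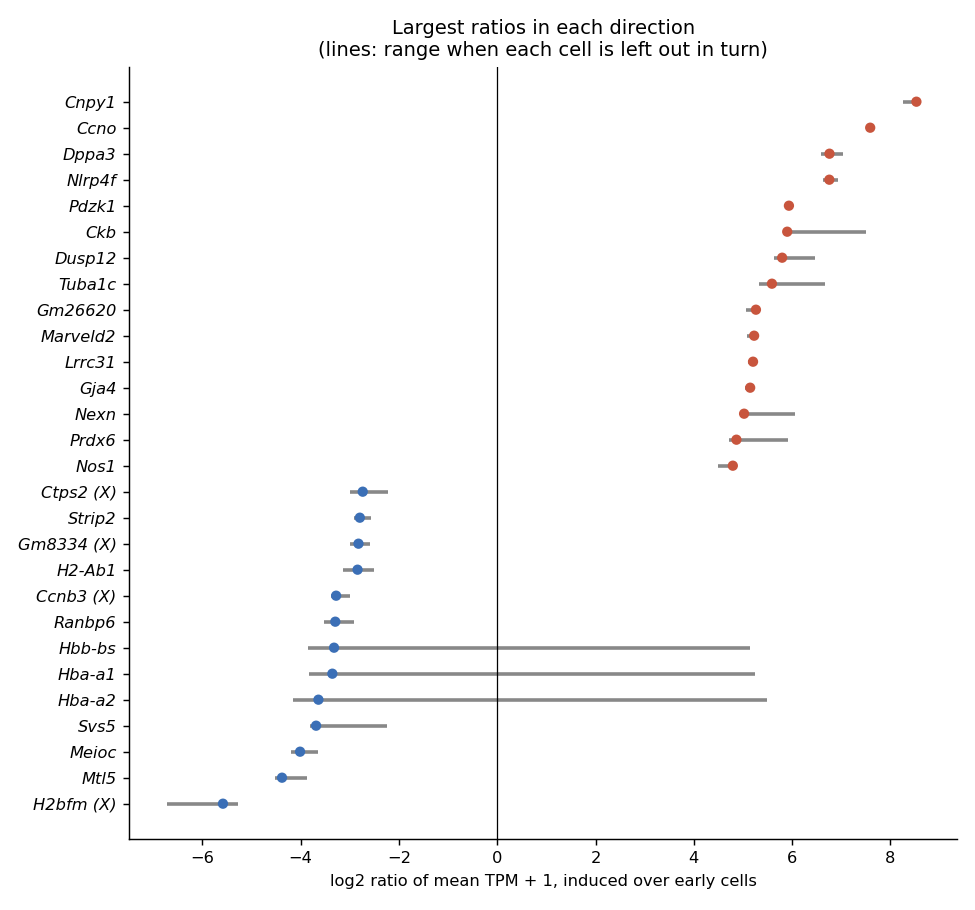
Log2 ratio of mean TPM plus 1, induced over early cells, of the 15 highest and 13 of the 15 lowest genes under the 50% rule; grey lines give the range when each cell is left out in turn and (X) marks genes on the X chromosome. Ccno and Pdzk1 barely move, whereas the globins Hba-a1, Hba-a2 and Hbb-bs cross 0 when early cell S126 is left out.

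The X chromosome held 288 (3.60%) of the 7999 genes, 23 (2.24%) of the 1029 that were 2-fold higher and 60 (7.62%) of the 787 that were 2-fold lower, and 4 of the 15 lowest ratios (H2bfm, Ccnb3, Gm8334 and Ctps2). Scml2, a Polycomb protein gene of the germ line on the X, went from a median of 118.01 to 42.2 TPM (ratio -1.78), and 5 early cells exceeded all induced cells. Tex11, an X-linked meiosis gene, had medians of 219 and 60.7 TPM with a ratio of -1.17, or -0.92 without early cell S026. Taf7l, on the X as well, was within 2-fold (-0.42). The shares come from a single set of cells, and whether chromosomes differ was not tested.

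Of 16 listed genes of cohesins, axis and synapsis, all with a mean of at least 1 TPM, 4 (25.0%) were 2-fold lower in induced cells, beside 12.6% of all genes with such a mean, and 0 were 2-fold higher. The median log2 ratio was -0.59, and 5 were lower by the difference of mean log2 values. Sycp2, of the lateral element, ranged from 140.6 to 1042 TPM in early and from 0.035 to 628 in induced cells, with medians of 474 and 154 and a ratio of -1.54. Its partner Sycp3 had medians of 1843 and 2981 TPM and a ratio of 0.61, and 63 of 71 induced cells exceeded the early median. Sycp1, the transverse filament, stood at medians of 1046 and 1119.6 TPM (0.04). The central element genes Syce1 (-0.51), Syce2 (0.56) and Tex12 (-0.78) and the cohesins Smc1b (-0.48) and Stag3 (-0.48) were all within 2-fold. Of the 4 lower genes, Hormad1 and Sycp2 kept their call whichever cell was left out, Trip13, the ATPase that removes HORMA proteins, had -1.09 and -0.99 without early cell S016, and Rec8 had -1.41 and 0.56 without early cell S059, the only early cell with Rec8 at 1 TPM or more.

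Of 25 genes of break formation and crossover, 9 were 2-fold lower, 1 was 2-fold higher and the median was -0.73. By the difference of mean log2 values, 14 were lower and 1 higher, beside 1210 and 1111 of the 7999 genes that averaged 10 TPM or more. Msh5, which stabilises crossover intermediates, had medians of 31.4 and 0 TPM (ratio -2.44), and Cntd1, a cyclin-like crossover factor, of 91.7 and 0.265 (-2.16). Dmc1, the meiotic recombinase, went from a median of 52.7 to 1.36 TPM (-1.77) and Meiob, a single-strand DNA binder, from 231 to 49.2 (-1.76). Ccdc36, a break factor, had a ratio of -1.45, or -0.93 as a difference of mean log2 values, and Tex11 is described above. Hfm1, a helicase of crossover formation, was just past 2-fold and was at -0.77 without early cell S002. Spo11, the nuclease that cuts, had -1.11 and -0.91 without early cell S106, and Msh4 had -1.05 and -0.84 without early cell S107. The exception was Mei1, another break factor, with medians of 0 and 9.36 TPM and a ratio of 1.24, which was 1.81 without early cell S002 but 0.89, within 2-fold, when TPM were scaled to the spike-in RNA. Mnd1 (-0.04) and Tex15 (0.37) were within 2-fold.

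The list of meiotic entry and telomere attachment had the lowest median of the 12 lists plotted here. Of 15 genes found, 9 were 2-fold lower and 0 higher (10 and 0 by the difference of mean log2 values), with a median of -1.19, and the list includes Meioc, Mtl5 and Scml2, whose levels in these cells were known when it was made. Spdya, the activator of Cdk2 at telomeres, ranged from 0 to 834 TPM in early cells (median 312) and had a median of 2.02 in induced cells, with a ratio of -2.35, while Cdk2 itself was at -0.36. Sun1 (-1.44) and Ccdc155 (-1.16), which link telomeres to the cytoskeleton, were lower. Ccdc155 lost its call at -0.87 without early cell S106 and at -0.51 with early cells limited to Sohlh1 below 5 TPM. Adad1 (-1.20), a double-stranded RNA binder, was lower, as was Dmrtc2 (-1.19), which was -0.88 without early cell S136. Dmrt1 had -1.73, and -0.97 without early cell S059. Tex101 (-0.84), Ythdc2 (-0.43) and Mael (0.05) were within 2-fold, although Tex101 was at -1.02 when scaled to the spike-in RNA and Ythdc2 at -1.20 by the difference of mean log2 values, and Stra8, the gatekeeper of meiotic entry, had a mean below 1 TPM in both classes.

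Of 40 genes of maternal complexes and storage found, 19 (47.5%) were 2-fold higher and 0 lower, beside 11.5% and 7.84% of all coding genes. Their median ratio was 0.80. By the difference of mean log2 values, 12 of the 40 were 2-fold higher. The 25 members with a mean of at least 1 TPM had a median of 2.08, but 15 listed genes, Zar1 among them, lay below that mean in both classes, and a member can pass it through the induced cells alone. Uchl1, a deubiquitinase abundant in oocytes, ranged from 0.692 to 188 TPM in early cells (median 35.5) and from 58.7 to 1581 in induced cells (median 763). With a ratio of 4.00, 66 induced cells lay above every early cell. Zfp57, a guardian of imprints, had medians of 0.0824 and 60.9 TPM (ratio 4.56, 5.54 without early cell S103), and Zbed3, of the subcortical maternal complex, 0.229 and 71.1 (3.97, 4.97 without early cell S020). Ybx2, which stores mRNA, had medians of 100.6 and 448 TPM (2.08) and Gtsf1, of the piRNA pathway, of 158 and 378 (2.14). Tle6 (1.06) and Cpeb1 (1.01), a regulator of poly(A) tails, were just above 2-fold and were 0.93 and 0.89 without induced cell S013 and early cell S036.

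Part of the maternal list was carried by few induced cells. Nlrp5, a core member of the subcortical maternal complex, was at 1 TPM or more in 19 of 71 induced cells and 0 of 13 early cells, with an induced median of 0.042 TPM. Its ratio was 5.51, but 1.56 as a difference of mean log2 values. Padi6 and H1foo, the oocyte linker histone, were each at that level in 1 early and 15 induced cells, with ratios of 5.17 and 4.20 and differences of mean log2 of 0.75 and 1.15; without induced cell S112 the ratio of Padi6 was 4.58. Npm2, an oocyte nucleoplasmin, reached it in 1 early and 5 induced cells (1.77 and 0.22). Oas1d reached it in 1, and its ratio of 1.58 was 0.01 without induced cell S113. Ooep (0.47), Dnmt1 (0.47), Dnmt3a (0.35) and Trim28 (-0.19) were within 2-fold.

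Of the oocyte ligands, receptors and zona genes, 5 of 13 found (38.5%) were 2-fold higher and 0 lower, beside 11.5% and 7.84% of all coding genes. By the difference of mean log2 values 4 were higher and 0 lower. The median of the 13 was 0.59. The 6 with a mean of at least 1 TPM had a median of 2.40, and 7 lay below that mean in both classes. Gja4 had the largest ratio (5.15). Zp2 was at 10 TPM or more in 2 of 13 early and 34 of 71 induced cells (47.9%, exact 95% interval 35.9 to 60.1%), although Zp3 was below 10 in all of them by the rule, and its ratio was 2.74, or 3.62 without early cell S065. Gdf9, the oocyte growth factor, was at 1 TPM or more in 1 early and 13 induced cells (ratio 3.11, difference of mean log2 0.75) and Zp1 in 0 and 5 (2.05 and 0.40). Bmpr2, a receptor for that family, had medians of 0.379 and 6.66 TPM (1.52). Kit, the receptor that oocytes use to sense Kit ligand, had medians of 105.6 and 148.0 TPM and a ratio of 0.98, just within 2-fold. It was past 2-fold in other measures, at 1.16 without early cell S020, 1.69 as a ratio of CPM (reads scaled to the library total) and 2.77 as a difference of mean log2 values.

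Of 35 cell cycle genes found, 6 were 2-fold higher, 6 lower and the median was -0.22. Of the 32 with a mean of at least 1 TPM, these are 18.8% each way, beside 18.6% higher and 12.6% lower among all such genes. By the difference of mean log2 values, 4 were higher and 8 lower, beside 1111 and 1210 of the 7999 genes that averaged 10 TPM or more. Besides Ccnb3, the lower genes were Top2a, a topoisomerase, with medians of 64.7 and 6.59 TPM (ratio -2.19), Cdc20, an activator of the anaphase-promoting complex, with 226 and 53.8 (-1.996), Aurka (-1.45), Ccne2 and Bub1b. Ccne2 had -1.67 but -0.85 without early cell S026, and Bub1b -1.05 but -0.33 without early cell S106. Besides Ccno, the higher genes were Incenp (1.57), of the chromosome passenger complex, its partner kinase Aurkb, read at 1 TPM or more in 0 early and 9 induced cells (2.56, 0.61 as a difference of mean log2 values), the centromere histone Cenpa (1.47, 2.07 without early cell S065), Ube2c (1.28), an enzyme that works with the anaphase-promoting complex, and Cdkn1a (1.12, 0.82 without induced cell S028, 2.20 without early cell S070). Ccnb1 (0.44), Cdk1 (0.52) and Pcna (0.13) were within 2-fold.

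Of 11 membrane genes, all with a mean of at least 1 TPM, 5 (45.5%) were 2-fold higher and 0 lower, with a median of 0.84. The shares of all genes with such a mean were 18.6% and 12.6%. The study had named Sdc1, Cd55, Tspan13 and Anxa7 from their change along its ordering of these same cells. The count is therefore not independent of that choice. Anxa7, a calcium-dependent membrane binder, had medians of 21.1 and 399 TPM (ratio 3.60), and 65 of 71 induced cells exceeded every early cell. Cd55, which shields cells from complement, had medians of 0.459 and 154 TPM and a ratio of 3.05, which became 5.46 without early cell S065, and the syndecan Sdc1 had 1.45, 2.37 without early cell S036. Tspan13, a tetraspanin, was at 2.59. Gjc1 was at 1.04, 0.93 without early cell S016 and 1.78 without early cell S020.

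Of 26 piRNA and germline RNA genes, 9 were 2-fold higher, 1 lower and the median was 0.27 (10 higher and 3 lower by the difference of mean log2 values). The 9 and 1 are 34.6% and 3.85%, beside 11.5% and 7.84% of all coding genes. Tdrd1, a scaffold of piRNA granules, had medians of 10.98 and 65.997 TPM (2.09), Piwil2, a piRNA-binding protein, of 58.8 and 144.6 (1.32), and Pld6, a nuclease on mitochondria, of 0 and 29.1 (2.13, 2.98 without early cell S106). Henmt1, which methylates piRNAs, had 1.68, or 2.41 without early cell S020. Rnf17 was the lower gene, with medians of 340.1 and 149.1 TPM, a ratio of -1.11 and -0.92 without early cell S059. Dazl (-0.02), Mov10l1 (0.06) and Asz1 (-0.20) were within 2-fold.

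Of 20 checkpoint and death genes, 6 were 2-fold higher and 0 lower, with a median of 0.36. Of the 19 with a mean of at least 1 TPM, the 6 are 31.6%, beside 18.6% of all such genes. By the difference of mean log2 values, 6 were higher and 2 lower. Trp63, the guardian of oocyte quality, had medians of 0 and 9.35 TPM and was at 1 TPM or more in 2 of 13 early and 38 of 71 induced cells (ratio 2.19, 2.96 without early cell S065). Aen, an apoptosis-linked nuclease, had medians of 79.7 and 251 TPM (1.62), and no induced cell was below 18.1. Bax (0.49), Chek2 (0.43, 1.03 by the difference of mean log2 values) and Trp53 (0.29) were within 2-fold. Of 14 immediate early and heat shock genes, 4 (28.6%) were lower, 1 (7.14%) was higher and the median was -0.04, beside 7.84% lower and 11.5% higher of all coding genes. By the difference of mean log2 values, 2 were lower and 0 higher, with Fos, Jun and Junb at 0.44, -0.74 and -0.68. Hspa2, a chaperone of meiotic germ cells, was at 1 TPM or more in 6 of 13 early and 16 of 71 induced cells (-3.15, -2.37 without early cell S106) and Dusp1 in 5 and 1 (-3.35). Junb was at that level in 2 cells of each class (-1.71, -0.81 without early cell S107), and Fos, the higher gene, in 0 early and 6 induced cells (1.87). Jun was at -1.01, or -0.04 without early cell S126. Early germ cell and pluripotency genes gave 4 higher and 3 lower of 19 (21.1% and 15.8%), beside 11.5% and 7.84% of all coding genes. Their median was 0.0039, and 1 was higher and 1 lower by the difference of mean log2 values. Among the 4, Kitl (1.29, 0.38 without induced cell S129), is also on the list of pregranulosa markers. Zfp42 (-1.48) was the only one of the 3 lower genes with 1 TPM or more in over 2 early cells, having medians of 55.1 and 3.23 TPM.

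**Figure D5:**
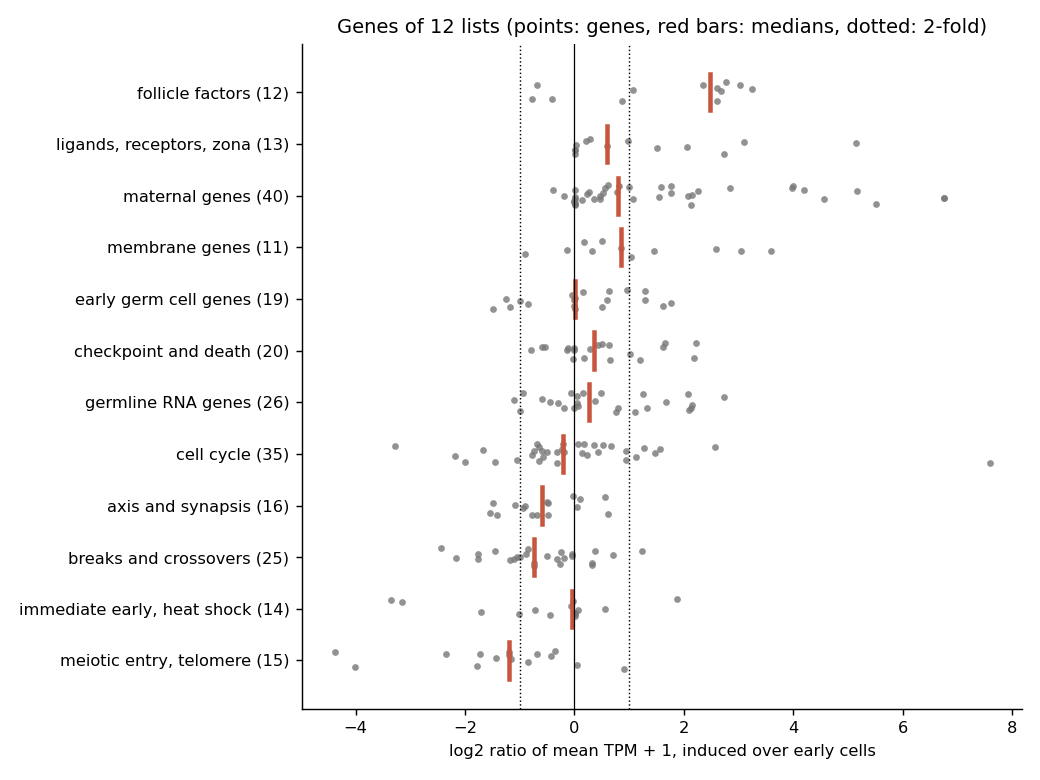
Log2 ratio of mean TPM plus 1, induced over early cells, for each gene found (points) of 12 lists, with the number of genes in brackets, list medians as red bars and dotted lines at 2-fold. Medians run from 2.47 for follicle factors to -1.19 for meiotic entry and telomere genes, beside 0.0015 for all coding genes.

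Across the 7999 genes, 5 of the 7 cells between the classes had a higher rho with the mean early cell and 2, cells S037 and S049, with the mean induced cell. In 2 of the 5 the rhos were nearly equal, at 0.722 and 0.717 in cell S100 and 0.720 and 0.708 in cell S086. Cell S018, with the highest Sohlh1 of the 7 (80.1 TPM), had rhos of 0.75 with the early and 0.66 with the induced mean and held 1087 TPM of Meioc, 986 of Ccnb3, 0.182 of Nobox and 0.265 of Lhx8. Cell S037, at 34.9 TPM of Sohlh1, had rhos of 0.65 and 0.74 and held 0 of Meioc, 15.3 of Ccnb3, 575 of Nobox, 3867 of Figla, 173 of Ccno and 1601 of Dppa3. Cell S049, at 49.8 TPM, had 0 of Meioc, 486 of Dppa3 and 0.545 of Nobox, and 21.04% of its reads were mitochondrial. In the other cells, with 22.5 to 28.1 TPM of Sohlh1, Meioc ranged from 66.5 to 437 TPM and Dppa3 from 0 to 3.58.

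In Zp3-high cells, members that averaged 1 TPM or more in early or induced cells had a median log2 ratio of 1.74 over induced cells for the maternal list, 1.73 for the ligand and zona list and -0.54 for the follicle factors. Lhx8 had a mean of 408 TPM in Zp3-high cells against 698 in induced cells, and Figla of 1287 against 1709.8. Ccnb3 had a mean of 4.86 TPM and Meioc of 2.84 in Zp3-high cells, below both other classes. Zp3-high cells were set apart by the same rule and share the induced cells with the comparison above, so these values stand beside it only as levels.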

How the data were processed

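Single-cell libraries made by Smart-seq2, with added spike-in RNA and without molecular identifiers, were deposited as 1 gene table per library. The TPM and the estimated counts in these deposited tables were made by the authors with Salmon, using its sequence bias option, on mm10 plus the spike-ins, after FastQC. Their versions are stated in the study's methods and not repeated here, and the annotation release is not given in the sources used here. TPM divides by length and by the total of the cell, so a few abundant genes lower all others. The protocol does not mark strand, so overlapping antisense genes cannot be told apart.

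TPM were used for all levels. Estimated counts were rounded and 1000000 reads drawn per cell for genes per cell, without replacement. Of 52605 symbols, 24295 matched no gene of the annotations used, and 19780 matched coding genes were kept. The software was NumPy 2.4.6, SciPy 1.17.1, pandas 2.3.3 and Python 3.11.15. All 146 libraries were within the study's stated limits on reads, mitochondrial share and spike-in share as computed here, although the study kept fewer cells, and cells it left out may be among the members. Libraries with a Pearson's r above 0.9 (log2 of TPM plus 1, genes with a mean of at least 10 TPM) were merged. This joined 7 pairs, whose counts differed by a chi-square per degree of freedom of 1.91 to 5.17, against at least 166 for any other 2 induced libraries. No doublet caller was run, since cells were picked singly. Depth was 4837060 to 33117400 reads per compared cell. Intervals for shares are Clopper-Pearson (95%) and cover counting error only.

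Because all cells form 1 sample, no test was run; a difference is a log2 ratio of mean TPM with a pseudocount of 1 TPM, over coding genes averaging 10 TPM or more in a class (lists over all members found). The calculation behind the 2-fold calls was checked on simulated cells with known changes. Their spread was set and not taken from these cells, so this does not measure how secure a call is here. The members and the gene lists were chosen with earlier results of these data known. Named are the genes of the rule and its markers, the 15 largest ratios in each direction among genes with at least 1 TPM in 50% of the cells of the higher class, list members, and the 10 genes ranked most like Sohlh1 in induced cells. Alternatives were other pseudocounts, scalings, filters and class limits, leaving out each cell, and, chosen after seeing the data, repeat libraries counted separately. Promoters of 300 bases came from RefSeq's GRCm38.p6 table, first entry per gene, chromosome 18 left out. Single genes of these rankings and lists that are not reported here are in the counts and medians only.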

Additional observations from a re-analysis of the deposited data

Results flagged for a closer look

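In each of 12 measures over the 7 cells between the classes, the highest and the lowest cell were compared with their nearest neighbour, and chance sets apart a cell in about 1 of 20 such groups where values are normally distributed, which was not tested. A cell stood apart in 4 of the 12. Cell S049 had 21.04% mitochondrial reads, against 7.58% in the next cell, while the highest induced and Zp3-high cells had 21.07% and 25.84%. Cell S018 had 1087 TPM of Meioc, against 437 in the next. Cell S037 had 575 TPM of Nobox, against 221, and 3867 TPM of Figla, against 815. The early and induced classes hold more than 10 cells each and were not searched in this way.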

How the results depend on the processing

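The counts of 1029 higher and 787 lower genes were 2281 and 1551 with no filter on low values and 1514 and 1209 with all gene symbols. By the difference of mean log2 values they were 1111 and 1210, so that more genes were lower than higher. Leaving out each cell in turn gave 987 to 1143 higher and 752 to 862 lower genes. With repeat libraries counted separately, an alternative chosen after seeing the data, 1028 genes were higher and 767 lower. Over list members that averaged 1 TPM or more in a class, the median of the maternal list (2.08) was 4.02 with a pseudocount of 0.1 TPM, 0.97 as a difference of mean log2 values and 0.80 with no filter. That of the ligand and zona list (2.40) was 3.81, 1.77 and 0.59 under the same 3 changes, and that of immediate early genes (-0.73) was -0.041 with no filter. The cell cycle median ran from -0.33 to -0.0079 when cells were left out. Of the named genes past 2-fold, 73 stayed past it under every alternative and 33 did not in at least 1. By the difference of mean log2 values 18 were within 2-fold, among them Gdf9 (0.75), Zp1 (0.40), Padi6 (0.75), Npm2 (0.22), Tbpl2 (0.53) and Aurkb (0.61). With repeat libraries counted separately Hfm1 and Jun were within 2-fold. Without early cell S126, an alternative chosen after seeing the data, Hbb-bs, Hba-a1 and Hba-a2 were at 5.14, 5.25 and 5.49, and as a difference of mean log2 values at 0.077, 0.98 and 0.45. Leaving out each cell gave ranges of -3.84 to 5.14, -3.83 to 5.25 and -4.15 to 5.49 for these 3 globins, and of -1.74 to 0.56 for Rec8. Rec8 was at 0.56 with early cells limited to Sohlh1 below 5 TPM, the upper end being without early cell S059. Genes per cell had medians of 8738 and 9111 with all reads. The share of early cells with a gene at 1 TPM was 92.3% for Meioc, 46.2% for Nobox and 38.5% for Dppa3. It was 100% for Meioc with 1 read of 1000000 drawn, and 84.6% for both others at 0.1 TPM. The cause of these shifts was not tested. No paired analysis was possible because all cells form 1 group. With 13 early cells from 1 litter, single cells set the early mean of low genes, and neither animals nor plates can be compared. Of the values of single named genes under the alternatives, 1475 stayed within 1.5 times the fold given, 164 moved further and 11, all of genes past 2-fold, changed sign. Sign changes of genes within 2-fold were not counted.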
